A study of Mus musculus with 24 samples.

Results

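Apolipoproteins are the protein parts of the particles that carry lipids through the blood, and most of those in plasma are made by the liver. They hold very low density and high density lipoproteins together, and they switch lipases, transfer proteins and receptors on or off. In a host with a tumor or an infection the liver alters its secreted proteins, and plasma triglycerides and high density lipoproteins often shift with them. The genes described here were chosen by name: Apoa1, Apoa2, Apoa4, Apoa5, Apob, Apoc1, Apoc3, Apoe, Apoh and Apom were looked up in the array's annotation table. Of these 10 genes, 3 had a named probe, which makes 3 of the 8726 distinct genes named on the array. They were Apoa5 (probe 2260, Entrez gene 66113), Apom (probe 3503, Entrez gene 55938) and Apoc1 (probe 5150, Entrez gene 11812), each with 1 probe. The other 7 genes, Apob and Apoe among them, were not analysed here.

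Liver RNA was compared between male C57Bl/6 mice given LL/2(LLC1) cells, a Lewis lung carcinoma line derived from the same strain, and mice given phosphate-buffered saline (PBS). All mice were 8 weeks old, the injection was subcutaneous and held 300 µl, and the tumor group received 1000000 cells in it. Livers were taken after 18, 72 or 192 h, each tumor sample was set against its own PBS sample, and there were 4 such pairs at each time. Each pair was hybridised on 2 two-colour arrays of 10080 printed probes with the dyes swapped, which gave 24 arrays for 12 pairs. The labels do not say whether a sample was 1 animal, so p-values measure only the spread between these pairs.

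The values are log2 ratios, and a ratio below 0 is read here as less RNA in the tumor group than in the PBS group. That direction is likely rather than settled, because it takes the first scanned channel to be Cy3, and every sign would turn if it were Cy5. In whole liver RNA, fewer cells of a type and less RNA per cell cannot be told apart. Between 977 and 8894 probes had a deposited ratio per array, so the arrays differ widely in how much they measured. Once turned to tumor over PBS, the swapped arrays of a pair correlated between -0.42 and 0.63 across probes, below 0 in 9 of 12 pairs. Among the 40 to 346 probes that stood over 4 times above background in both channels, the same correlation lay between -0.31 and 0.81, with a median of 0.30, and was below 0 in 2 pairs. The average of both orientations was therefore used wherever both existed. The tissue label was checked with hepatocyte markers: Pck1, Ahsg and Tdo2 were measured on all 24 arrays and Hnf4a on 23. Probes of other cell types were measured on between 4 arrays (Elane of neutrophils, Des of stellate cells) and 24 arrays (Dcn of fibroblasts).

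The promoters of the members with a ratio that could be tested are shown here because the liver transcription factors described further on are known to act through such sites. RefSeq's table for GRCm38.p6 held 3 windows for 2 of the 3 members, each with 250 bases before a transcription start and 50 from it. Apoa5 has 2 starts, and the window of the upstream one (chr9:46268358-46268657, plus strand) and the single window of Apom (chr17:35131752-35132051, minus strand) are printed 5′ to 3′ in the direction of transcription. Capitals mark matches to 4 searched motifs.
Apoa5: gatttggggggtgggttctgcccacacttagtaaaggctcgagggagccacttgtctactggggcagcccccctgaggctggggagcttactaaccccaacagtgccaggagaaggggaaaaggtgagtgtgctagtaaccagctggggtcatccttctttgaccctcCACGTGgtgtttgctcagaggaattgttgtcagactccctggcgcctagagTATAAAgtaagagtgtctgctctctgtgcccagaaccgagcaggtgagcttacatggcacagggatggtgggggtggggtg
Apom: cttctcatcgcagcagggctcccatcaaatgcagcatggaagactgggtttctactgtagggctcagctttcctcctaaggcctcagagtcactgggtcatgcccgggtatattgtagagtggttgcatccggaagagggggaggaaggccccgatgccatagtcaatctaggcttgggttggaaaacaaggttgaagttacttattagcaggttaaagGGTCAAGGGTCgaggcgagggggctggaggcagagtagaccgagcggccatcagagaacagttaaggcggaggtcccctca
The motifs were searched on both strands. TATAAA, the TATA box, began at base -31 of the Apoa5 window, counted from the start, and was present in 13.6% of all 32851 windows in the table. CACGTG, the E box that Usf1 and Usf2 can bind, lay in the same window from base -82, and 7.15% of all windows held it. The core of a direct repeat of nuclear receptor half-sites, a form that Hnf4a and retinoid receptors can bind, was searched as GGTCA, any pair of bases and GGTC. It began at base -31 in Apom and was present in 0.393% of windows. TTGCNNAA, which resembles C/EBP sites, matched in neither printed window and in 10.8% of all. No motif overlapped another in these windows, and a match of letters is a description of the sequence only.

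Apoa5, which speeds the clearance of triglyceride-rich particles by lipoprotein lipase, was lower in the tumor group in every pair that both orientations measured. This held for 4 pairs at 18 h, 2 at 72 h and 3 at 192 h, with a mean log2 ratio over the 9 pairs of -0.14 ± 0.11 (SD, n = 9). Apom, the carrier of sphingosine-1-phosphate on high density lipoprotein, had no common direction, with 3 pairs below 0 and 6 above. Apoc1, a small apolipoprotein that restrains lipases and particle uptake, saturated the scanner on most arrays, so no pair gave a ratio in both orientations. No member passed the test across all probes at any time (limma, Benjamini-Hochberg adjusted p under 0.05).

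**Figure D1:**
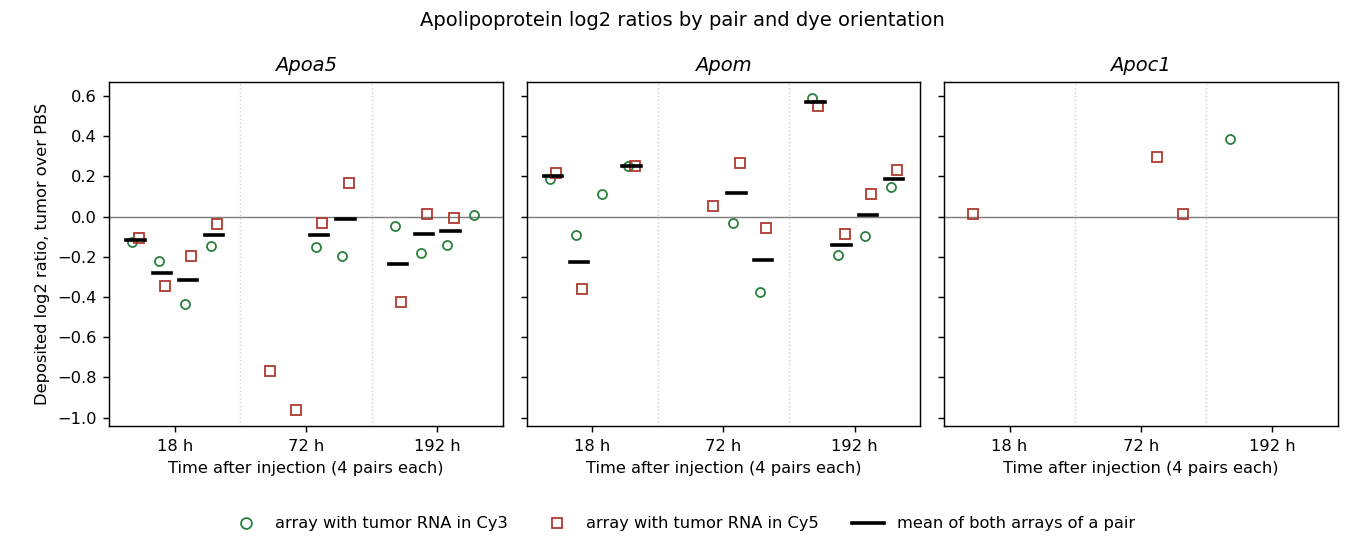
Deposited log2 ratio of tumor over PBS (vertical axis) for each array, grouped by time and pair, in 1 panel per gene; circles are arrays with tumor RNA in Cy3, squares arrays with it in Cy5, and bars the mean of both arrays of a pair. The Apoa5 bars all lie below 0, the Apom bars lie on both sides of it, and Apoc1 has 4 points and no bar.

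At 18 h the Apoa5 ratios on the arrays with tumor RNA in Cy5 and in Cy3 were -0.11 and -0.13 in pair 1 and -0.34 and -0.22 in pair 2. They were -0.20 and -0.43 in pair 3, and -0.035 and -0.15 in pair 4. All 8 arrays were thus below 0 in the deposited ratios, in both dye orientations. In ratios computed from the scans after loess normalization, the array of pair 1 with tumor RNA in Cy5 was at 0.045. Of the 2862 probes tested at 18 h, 18% were lower in every measured pair and 4.86% were lower on both arrays of every measured pair. The mean was -0.20 ± 0.051 (SE, 95% confidence interval -0.31 to -0.087), or 87.0% of the PBS level. Its unadjusted p of 0.00301 ranked 10 of 2862, and its adjusted p was 0.586 (limma), which was also the smallest adjusted p of any probe in that comparison. The SE pools the spread of the 9 complete Apoa5 pairs over the times, and pairs 1 and 2 of 72 h are not among them. No probe was called at an adjusted p under 0.05 (0%), while 217 (7.58%) had an unadjusted p under 0.05.

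At 72 h Apoa5 had both orientations in 2 pairs only, with ratios of -0.030 and -0.15 in pair 3 and of 0.17 and -0.19 in pair 4. The pair means of -0.091 and -0.014 were too few for the test, which needed 3 pairs. In pairs 1 and 2 the table holds the array with tumor RNA in Cy5, at -0.77 and -0.96, the lowest Apoa5 values of the series. The swapped arrays of those pairs have no deposited ratio. Their spots were saturated, with factors of 0.675 and 0.797 in the least saturated scan, where 1 means no saturation. Ratios computed from the dimmest scan of these swapped arrays, after loess normalization, were -0.67 and -1.04, and -0.30 and -1.07 when all 3 scans were averaged. Because these spots were saturated, they are no measure of the second dye. In the deposited ratios, pairs 1 and 2 thus lay far below 0 and pairs 3 and 4 lay near it.

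With pairs counted from either orientation, the 72 h mean of Apoa5 was -0.46 ± 0.13 (SE), with all 4 pairs below 0, from -0.96 to -0.014. The SD of these 4 pairs was 0.48, against 0.11 at 18 h and 0.10 at 192 h in that setting. The SE and the p-values pool the spread of all 3 times, so they understate the spread at 72 h. That setting placed 9.02% of 8249 probes below 0 in every pair, and limma gave an unadjusted p of 0.00314 and an adjusted p of 0.843. No probe was called there (0%), and 476 (5.77%) had an unadjusted p under 0.05. From the scans normalized by loess, the 4 pairs lay at -0.46, -0.98, -0.089 and -0.32. Their mean was -0.46 ± 0.14 (SE pooled over the times, SD 0.38) or 72.5% of the PBS level. The adjusted p was 0.594 (limma), no probe of 5258 was called (0%), 412 (7.84%) had an unadjusted p under 0.05, and 17.3% were lower in every pair. From spots with a saturation factor of at least 0.8, pairs 3 and 4 remained, with a mean of -0.20. The size at 72 h thus rests on pairs 1 and 2, whose swapped spots were saturated.

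At 192 h the Apoa5 ratios with tumor RNA in Cy5 and in Cy3 were -0.43 and -0.045 in pair 1, 0.013 and -0.18 in pair 2, and -0.0059 and -0.14 in pair 3. Pair 4 had a single deposited ratio, 0.0080 with tumor RNA in Cy3, the other array being saturated with a factor of 0.126. The 3 complete pairs averaged -0.24, -0.084 and -0.074, and 8.13% of the 2030 probes tested were below 0 in every measured pair. Their mean was -0.13 ± 0.061 (SE, 95% confidence interval -0.27 to 0.0051), or 91.3% of the PBS level, with an adjusted p of 0.999 (limma). No probe was called at 192 h (0%), and 61 (3%) had an unadjusted p under 0.05. Apoa5 was nearest to 0 at this time by the deposited ratios of either orientation, with a mean of -0.096 ± 0.10 (SD, n = 4).

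No difference between times passed the test for Apoa5. The 192 h mean lay above the 18 h mean by 0.070 ± 0.082 (SE, 95% confidence interval -0.11 to 0.25, limma, adjusted p = 0.999). Of 1588 probes, 0% were called and 62 (3.9%) had an unadjusted p under 0.05. With either orientation, the difference of 72 h from 18 h was -0.26 ± 0.18 (SE, limma, unadjusted p = 0.170, adjusted p = 1.00; 0% of 6663 probes were called and 235, or 3.53%, had an unadjusted p under 0.05). The 192 h mean then lay above the 72 h mean by 0.36 ± 0.18 (SE, limma, unadjusted p = 0.0623, adjusted p = 0.995; 0% of 5508 probes were called and 247, or 4.48%, had an unadjusted p under 0.05). The order of the times depended on pairs 1 and 2 of 72 h. With them 72 h had the lowest mean, and with complete pairs alone it had the mean nearest to 0 (-0.053), in a fit that accepted 2 pairs a difference from 18 h of 0.15 ± 0.084 (SE). The pairs of neighbouring times overlapped in either order.

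Over all times, Apoa5 was lower on both arrays in 7 of the 9 complete pairs, and the arrays of the other 2 pairs split. By dye, 9 of 10 arrays with tumor RNA in Cy3 and 9 of 11 with it in Cy5 were below 0. Among the 1564 probes with at least 9 complete pairs, 5 (0.32%) were lower in every one. Some of those probes had more than 9 complete pairs, so the share is not that of probes with 9 pairs alone. An exact two-sided permutation test that turns the signs of whole pairs gave p = 0.0039 for Apoa5, the smallest that 9 pairs can give, and 0.394 after adjustment over those probes. From the loess-normalized scans all 12 pairs were below 0, with a mean of -0.32 ± 0.26 (SD, n = 12) and a range from -0.98 to -0.062. Both arrays were lower in 7 of the 12 pairs and the arrays of the other 5 split. In each split pair the array with tumor RNA in Cy5 was above 0 and the one in Cy3 below it. In 3 of the 12 pairs (1 and 2 of 72 h, 4 of 192 h) 1 array had a saturation factor under 0.8, and without such spots 9 of 9 pairs were below 0. Pair 4 of 192 h was at -0.48 by the scans but at 0.0080 on its deposited array, and deposited ratios of either orientation were below 0 in 11 of 12 pairs. Of 493 probes measured in all 12 pairs, 3 (0.609%) were lower in every one, and the same exact permutation test gave 0.00049, the smallest possible with 12 pairs, and 0.0802 after adjustment. This test was added after the values were seen and is given as a description.

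**Figure D2:**
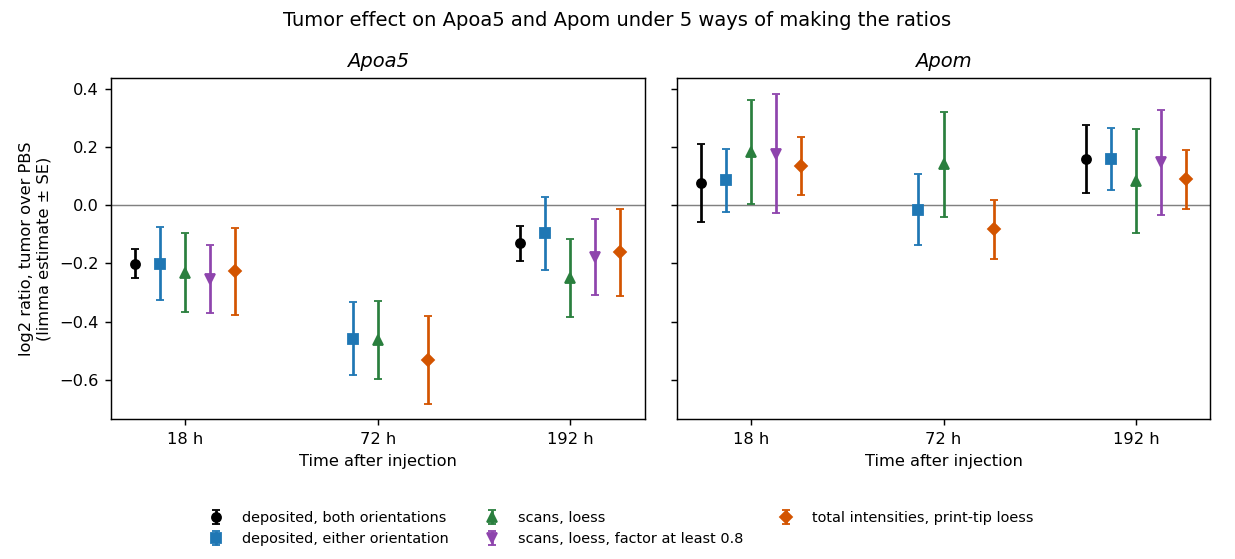
Mean log2 ratio of tumor over PBS with its SE from limma (vertical axis) for Apoa5 and Apom at each time, with 1 symbol per way of making the ratios. The 72 h positions lack the deposited ratios of both orientations and the scans limited to a saturation factor of at least 0.8, which left 2 pairs; every Apoa5 symbol lies below 0, and the Apom symbols at 72 h lie on both sides of it.

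Apom is held on high density lipoprotein by its uncleaved signal peptide and is made mainly by hepatocytes. At 18 h its ratios with tumor RNA in Cy5 and in Cy3 were 0.22 and 0.19 in pair 1, -0.36 and -0.093 in pair 2, and 0.250 and 0.250 in pair 4. Pair 3 had 0.11 with tumor RNA in Cy3 and none on its swapped array, whose saturation factor was 0.398. Both arrays of a pair had the same sign in each complete pair, yet the pairs themselves opposed each other. The mean of the 3 pairs was 0.076 ± 0.13 (SE, adjusted p = 0.895, limma), and the 95% confidence interval of -0.23 to 0.38 allows a level between 85.5% and 130% of PBS.

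At 72 h Apom had both orientations in pair 3, at 0.27 and -0.032, and in pair 4, at -0.055 and -0.37. Pair 2 had 0.052 on 1 array and pair 1 had no deposited ratio. The pair means of 0.12 and -0.21 lay on either side of 0 and were not tested. The 3 arrays without a ratio among pairs 1 and 2 had saturation factors from 0.109 to 0.785. From the loess-normalized scans the mean of the 4 pairs was 0.14 ± 0.18 (SE, limma, adjusted p = 0.845).

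At 192 h Apom stood at 0.55 and 0.59 in pair 1, -0.085 and -0.19 in pair 2, 0.11 and -0.095 in pair 3, and 0.23 and 0.15 in pair 4. Pair 1 was the highest Apom pair of the series, and both of its arrays gave that value. The mean was 0.16 ± 0.12 (SE, adjusted p = 0.999, limma), with a 95% confidence interval of -0.11 to 0.42. Without pair 1 the mean was 0.020, so its size rests on that pair. The 192 h mean exceeded the 18 h mean by 0.082 ± 0.18 (SE, adjusted p = 0.999, limma), a difference whose sign turned when the scans were used. The exact permutation test over all 9 pairs gave p = 0.375 for a mean of 0.085 ± 0.26 (SD, n = 9).

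Apoc1 was too bright for this scanner setting. Its spot was measured on all 24 arrays, but on 20 of them even the least saturated scan had a saturation factor under 0.8, with a median of 0.142 over the arrays. The 4 deposited ratios were 0.014 at 18 h, 0.30 and 0.014 at 72 h and 0.38 at 192 h, each from a different pair and 3 of them with tumor RNA in Cy5. All 4 lie above 0, and no pair has its dye-swapped partner, so they were not tested. The scans do give a ratio for every pair, with 10 of 12 pairs above 0 after loess on background-corrected intensities and 7 of 12 after print-tip loess on total intensities. Because these spots were saturated, no level or fold is drawn from them.

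**Figure D3:**
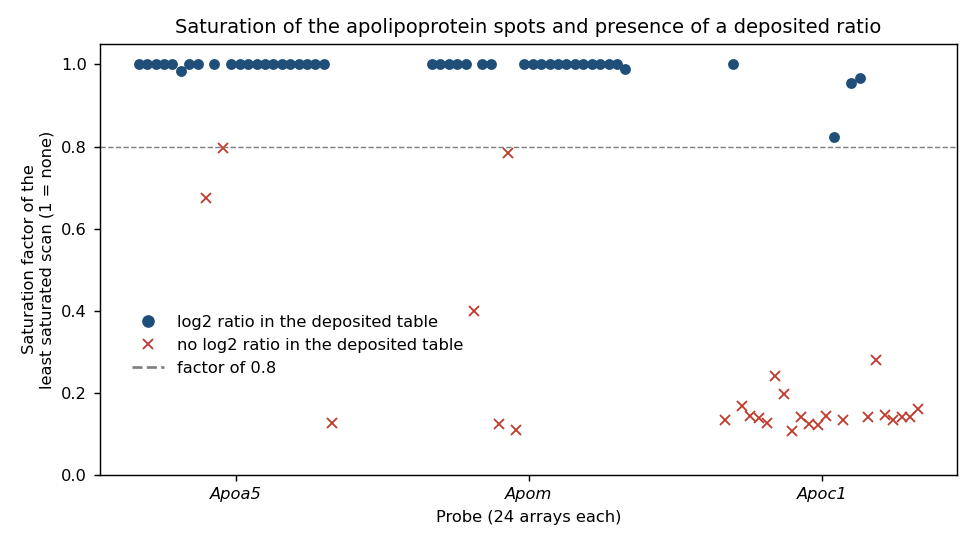
Saturation factor of the least saturated of 3 scans (vertical axis, 1 meaning no saturation) for each of the 24 arrays of a probe; dots have a log2 ratio in the deposited table and crosses have none. Every cross lies under the dashed line at 0.8, with 3 for Apoa5, 4 for Apom and 20 for Apoc1.

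The link between saturation and missing ratios held across the table. Of 1578 spots whose best scan had a factor up to 0.8, 1 had a deposited ratio, against 87.2% of spots with a factor of 1. The bright members thus lost ratios at the upper end of the scale, not through weak signal. In the middle scan, the total intensity of Apoa5 was 7.64 times its background in the tumor channel and 11.4 times in the PBS channel as medians over arrays. For Apom the corresponding medians were 5.93 and 6.94 times background.

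Apoa5 and Apom correlated at -0.25 over the 8 pairs complete for both and at -0.13 over 12 pairs of scan ratios, values that share arrays and dyes and are given as a description. No member had the 10 complete pairs needed to seek genes of like pattern in the deposited ratios. With the scan ratios, where the mean of the 3 members includes the saturated Apoc1, the 5 highest correlations among 1284 candidates were those of Clec4f (0.90), Uqcrq (0.90), Dclre1a (0.90), Rpl7a (0.89) and Rps27 (0.89), over 11 or 12 pairs.

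Other apolipoproteins and relatives had pair means from -0.35 to 0.65, and 28 of their 56 complete pairs lay within 0.1 of 0. Of 22 listed genes, 9 had a probe, and 5, 4 and 3 were tested at 18, 72 and 192 h, none with an unadjusted p under 0.05. Apoc4, the neighbour of Apoc1 in its gene cluster, stood at -0.0048 ± 0.070 (SE) at 18 h and -0.041 ± 0.083 at 192 h, with 8 complete pairs between -0.25 and 0.19. Saa3, an acute phase apolipoprotein, had the highest estimate of the list at 18 h (0.24 ± 0.13, SE, adjusted p = 0.682, limma) and was lower in 1 of 3 pairs. Apoo, a mitochondrial protein of this family by name, had pair means from -0.26 to 0.33 in 11 pairs.

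Genes that assemble and export very low density lipoprotein in the hepatocyte were mostly below 0 at 18 and 72 h in the deposited ratios. A link with Apoa5 was not tested. At 18 h, 8 of 10 tested probes of this list lay below 0, with a median of -0.089 against -0.0069 over all probes, 53.6% of which lay below 0. In the list 3 had an unadjusted p under 0.05, all lower, where 4.58% of all probes did. Sar1b, the GTPase of the coated vesicles that carry these particles out of the endoplasmic reticulum, was at -0.40, -0.38 and -0.20 in pairs 1, 3 and 4. Mttp, which loads lipid onto apolipoprotein B, was at -0.18, -0.37 and -0.061 in the same pairs. Surf4, a cargo receptor for lipoproteins, was at -0.31, -0.028, -0.30 and -0.069 in pairs 1 to 4. All complete pairs of these 3 genes were below 0, and each had an adjusted p of 0.586 (limma). By the scans 8 of the 10 probes were again below 0. Pair 2 stood above 0 there for all 3 genes, at 0.16 for Surf4, 0.074 for Mttp and 0.0032 for Sar1b. For Mttp and Sar1b this pair had no complete deposited ratio.

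At 72 h, 8 of 9 probes of the assembly list lay below 0, with a median of -0.11 against -0.012 over all probes, 57.6% of which lay below 0. The 2 with an unadjusted p under 0.05, were Plin2 and A1cf. In that comparison 3.13% of 3390 probes were lower at that level, 172 (5.07%) passed it in either direction, 0% were called, and 16% were lower in every measured pair. Plin2, which coats lipid droplets, was at -0.26, -0.29 and -0.13 in pairs 1, 2 and 4, and A1cf, the partner of the enzyme that edits Apob mRNA, was at -0.12, -0.24 and -0.015 there. Their adjusted p was 0.877 (limma), and pair 4 of A1cf was at 0.0076 by the scans. At 192 h the list stood at a median of -0.026 in the deposited ratios, 5 of 8 probes were below 0, against 52.6% of all probes, and none had an unadjusted p under 0.05. By the scans 9 of 9 probes were below 0 at 72 h (median -0.20) and 7 of 8 at 192 h (median -0.19). The scan medians over all probes were -0.020 and -0.0078 at these times.

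Among plasma lipases, transfer proteins and their modulators, 4 of 6 probes lay below 0 at 18 h, against 53.6% of all probes, with a median of -0.066. Pon3, a lactonase carried on high density lipoprotein, was at -0.24, -0.53 and -0.085 in pairs 1, 3 and 4 (adjusted p = 0.586, limma). Pla2g12b, a catalytically inactive phospholipase needed for lipid loading of secreted particles, averaged -0.12 ± 0.052 (SE) and was lower in 3 of 3 pairs. Over the 3 times together its mean was -0.097 ± 0.031 (SE, adjusted p = 0.504, limma). Of 1362 probes tested over the times, 0% were called and 128 (9.4%) had an unadjusted p under 0.05. At 72 and 192 h the medians of this list were -0.052 and -0.013, with no unadjusted p under 0.05.

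Receptors and lipid exporters were centred on 0 in the deposited ratios at 18 h (median 0.0018, 5 probes) and at 192 h (0.013, 5 probes). The scans placed 4 of 5 below 0 at 18 h (median -0.044) and 3 of 5 at 192 h (median -0.077). At 72 h 6 of 7 deposited means were below 0, against 57.6% of all probes, with a median of -0.064. Lrp1, which takes up remnant particles rich in apolipoprotein E, was at -0.090, -0.49 and -0.13 in pairs 1, 2 and 4 (adjusted p = 0.877, limma). The scans gave 0.18, 0.16 and -0.26 for these Lrp1 pairs, so 2 of 3 changed sign, and by the scans 4 of the 7 receptor probes were below 0. Scarb1, the receptor for high density lipoprotein, was at -0.12 ± 0.068 (SE) at 18 h and at 0.0076 ± 0.067 at 72 h.

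Transcription factors that act on apolipoprotein genes were below 0 in 9 of 9 probes at 18 h, 7 of 8 at 72 h and 3 of 6 at 192 h in the deposited ratios, with medians of -0.050, -0.071 and 0.0021. Of all tested probes 53.6%, 57.6% and 52.6% lay below 0 at these times. By the loess-normalized scans of the same pairs, 6 of 9, 6 of 8 and 4 of 6 were below 0, and Srebf1, Rxra and Nr0b2 turned above 0 at 18 h. None of the 9 had an unadjusted p under 0.05 at 18 h. At 72 h, Cebpa, a factor of hepatocyte differentiation, was at -0.17, -0.44, -0.25 and -0.0091 in pairs 1 to 4. Usf2, a factor that can bind E boxes, was at -0.10, -0.18, -0.093 and -0.12, and Cebpb was at -0.29, -0.53 and 0.084 in pairs 1, 2 and 4. These 3 had unadjusted p-values under 0.05 and an adjusted p of 0.877 (limma), and 3.13% of 3390 probes were lower at that unadjusted level. Hnf4a averaged -0.040 ± 0.070 (SE) at 18 h, -0.020 ± 0.059 at 72 h and -0.050 ± 0.061 at 192 h, within its error at each time.

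**Figure D4:**
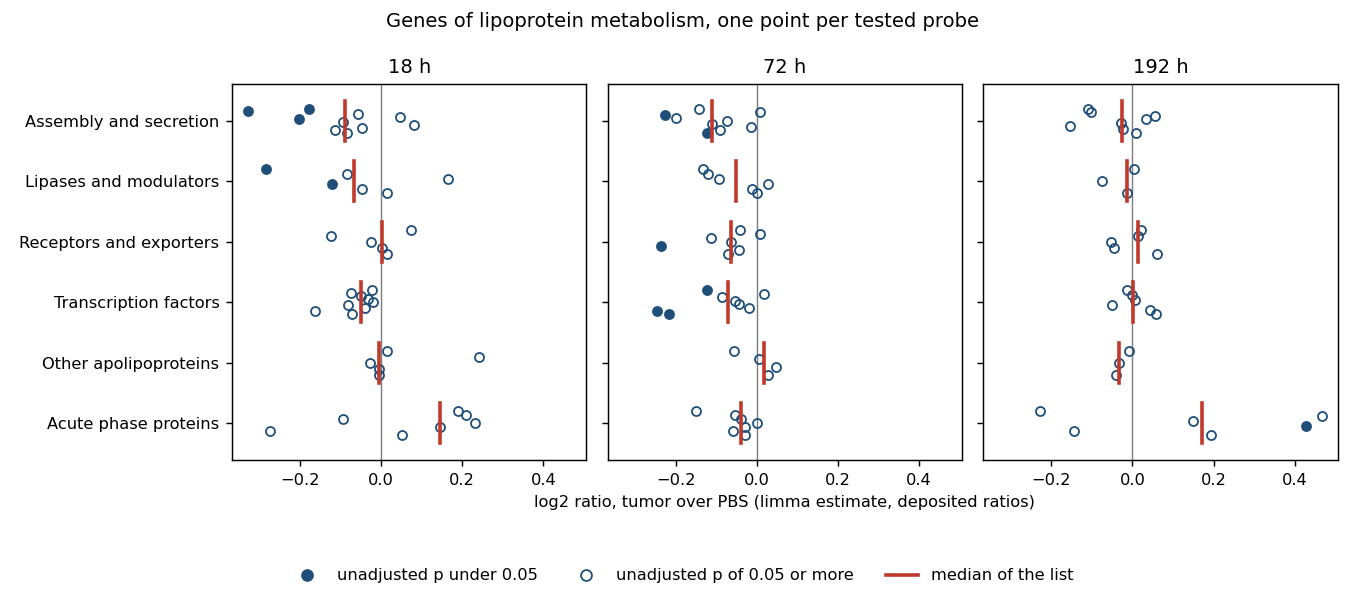
Log2 ratio of tumor over PBS from limma (horizontal axis) for every tested probe of 6 gene lists at 18, 72 and 192 h; filled points had an unadjusted p under 0.05, open points did not, and red bars are list medians. The medians of the assembly list lie at -0.089, -0.11 and -0.026, and that of the acute phase list lies above 0 at 18 and 192 h.

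Acute phase proteins gave a comparison with secreted proteins that are known to rise in inflammation. Their median was 0.14 over 7 probes at 18 h, -0.038 over 7 at 72 h and 0.17 over 6 at 192 h. Fga, the fibrinogen alpha chain, was above 0 in 4 of 4 pairs at 192 h, at 0.013, 0.71, 0.40 and 0.60 (adjusted p = 0.999, limma; 1.03% of probes were higher with an unadjusted p under 0.05, and 5.76% were higher in every measured pair). The scans gave -0.59, 0.65, 0.65 and 0.92 for the same Fga pairs, so pair 1 turned below 0. Crp was below 0 in 4 of 4 pairs at 18 h, from -0.62 to -0.14 (adjusted p = 0.657, limma), and 18% of 2862 probes were lower in every measured pair.

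Markers of the liver's cell types were read beside these values at 18 h, and none was called. Of all tested probes 53.6% lay below 0 at that time. All 3 tested hepatocyte markers of the 12 listed were below 0, from -0.49 for Pck1, the gluconeogenic enzyme, to -0.040 for Hnf4a, with Tdo2 at -0.30. Of these 3, Pck1 alone had an unadjusted p under 0.05 (limma). All 6 tested Kupffer cell and macrophage markers of 13 were above 0, between 0.023 and 0.15, and all 3 endothelial markers of 9 were below 0, between -0.14 and -0.011. In each of these lists 1 probe had an unadjusted p under 0.05 (limma), as did 7.58% of all probes. By the scans of the same pairs, 3 of 3 hepatocyte, 1 of 6 Kupffer cell and 2 of 3 endothelial probes were below 0, with Eng of endothelial cells at 0.22. The single tested neutrophil gene stood at 0.030, no lymphocyte probe was tested, and no erythroid gene had a probe. At 72 h, where the 2 lowest Apoa5 pairs lay, Pck1 averaged 0.039 ± 0.20 (SE). Its pairs 1 to 4 were at -0.047, -0.20, 0.29 and 0.12, and those of Hnf4a at -0.11, -0.054, -0.058 and 0.15. Tdo2 had too few complete pairs to be tested at 72 h, and the scans gave -0.45, -0.72, 0.52 and 0.60 for its pairs 1 to 4. The Kupffer cell list stood between -0.017 and 0.41 at 72 h, with 5 of 6 probes above 0, and the 2 tested neutrophil genes stood at 0.023 (S100a8) and 0.29 (Mpo). In each of these lists 1 probe was higher with an unadjusted p under 0.05 (limma), where 5.07% of all probes passed in either direction. By the scans of the same pairs, 3 of the 6 Kupffer cell probes were below 0, and S100a8 stood at -0.030 and Mpo at 0.44. The part of these cell types in the Apoa5 values was not tested.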

How the data were processed

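Liver RNA of tumor-bearing and PBS-injected mice was compared on printed two-colour arrays. The authors deposited a table of log2 ratios, whose scale and direction are not stated there. Set against the scans, its values were already turned to 1 direction for swapped arrays, had medians between -0.033 and 0.0095, and correlated at 0.58 to 0.91 with print-tip loess ratios of total intensities. Per the file headers, each array has 3 scans with background-corrected intensities, a saturation factor given as a fraction and flags. The image analysis and normalization software is not given in the sources used here. The probes carry no genome coordinates here.

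Probes were named from the platform annotation (9066 with 1 symbol, 12 with several, 1002 with none, and 8977 with an Entrez identifier matched in RefSeq's table). Swapped arrays were averaged per pair, both being required. Probes with at least 3 of 4 pairs at the times compared were fitted with limma 3.58.1 in R 4.3.3, all 12 pairs in 1 fit, with Benjamini-Hochberg adjustment over all probes tested and a threshold of 0.05. The fit was tested on simulated data. The scan ratios used loess with a span of 0.3, averaging unsaturated scans, or all scans where none was unsaturated. Exact permutation tests turned the signs of pairs and were chosen after the values were seen. The members and gene lists were chosen with earlier results of these data known. Members are every probe of the 10 listed genes, and in each list at most 3 genes of smallest p per comparison are named by rule. Apoc4, Hnf4a and Scarb1, where outside that rule, and the marker genes were named after their values were seen. 15 alternatives and the removal of each pair in turn were tried. The number of arrays limits the precision.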

Additional observations from a re-analysis of the deposited data

How the results depend on the processing

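Not all of the 15 alternatives could test the members. Taking every deposited log ratio gave the same values as the main setting, so it was no further check. Requiring enough complete pairs at every time left out Apoa5 and Apom, which had 2 at 72 h. Under the remaining alternatives and the removal of each pair, Apoa5 stayed below 0 at 18 h (-0.43 to -0.16) and at 192 h (-0.40 to -0.0054). No adjusted p passed the threshold. Untested at 72 h in the main setting (mean -0.053), Apoa5 moved to -0.46 with either orientation and with the loess-normalized scans, -0.50 with the dimmest scan, -0.73 with normexp (offset 50), -0.48 with median centring, -0.35 on single arrays with a dye term, -0.53 from total intensities by print-tip loess and -0.20 with a saturation factor of at least 0.8. The last 2 were chosen after seeing the data. These settings other than the last bring in pairs 1 and 2. Apoa5 at 192 h against 18 h turned to -0.019 with the scans and -0.13 with normexp. Apom turned to -0.067 at 18 h and -0.034 at 192 h with scans centred on the median, and leaving out each pair gave -0.011 (without pair 4) to 0.23 at 18 h. Apom at 192 h against 18 h turned to -0.10 with the scans, -0.037 with the dimmest scan, -0.046 from total intensities, -0.030 with the saturation limit, and from -0.069 (without pair 2 of 18 h; -0.056 without pair 1 of 192 h) to 0.18 when pairs were left out. The cause was not tested.

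Pairs shared replicate numbers across times, and same-numbered pairs correlated between -0.32 and 0.49. Pairs of different numbers were not set beside them, so whether the numbers pair the samples was not settled. With a replicate block, Apoa5 at 18 h stayed at -0.20 (unadjusted p = 0.00964), 1 probe instead of 0 was called over the 3 times together, and every other count stayed 0. Leaving out each pair gave 0 to 1 calls there, the 1 without pair 4 of 72 h, and 0 in all other comparisons. The unadjusted p of Apoa5 at 18 h, 0.00301 in the deposited complete pairs, was 0.137 with either orientation, 0.104 with the scans by loess and with the dimmest scan, 0.295 with normexp, 0.124 with median centring, 0.154 with print-tip totals and 0.0491 with the saturation limit.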
